A study of Mus musculus with 12 samples.

Results

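The genes described here mark T cells and cytotoxic lymphocytes: Cd3d, Cd3e, Cd3g, Cd8a, Cd4, Nkg7, Prf1, Ifng, Xcl1 and Lat. They were chosen by symbol, and all 10 were found among the 24421 genes counted in single cells of mouse mammary tumours. For each gene the number of cells with at least 1 unique molecular identifier (UMI, 1 captured RNA molecule), called positive cells, was set against the number of UMIs per positive cell. The 12 tumours came from untreated mMTV-Cre HER2 Crainbow mice on the FVBN background, in which Cre driven by a mammary tumour virus promoter switches on coloured reporters together with forms of the HER2 receptor. All groups, the comparison groups included, therefore carry the transgene, and no normal gland was analysed here.

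The 8 nulliparous tumours were taken at 15 to 21 weeks. Of these, 5 were labelled p95 HER2, a shortened receptor, and all 5 were metaplastic. The other 3 were labelled d16 HER2, a splice form, of which 2 were metaplastic and d16 tumour 1 was solid nodular. The 4 multiparous tumours, at 16 and 17 weeks, had a HER2 form labelled unknown. Multiparous tumours 2 and 4 were solid nodular, and multiparous tumours 1 and 3 were mixed. Every metaplastic tumour was nulliparous, so parity and growth pattern largely cannot be told apart. Cells were captured in ddSEQ droplets, and 7366 of 8486 barcodes with at least 200 detected genes were kept. Total UMIs ran from 140348 in p95 tumour 1 to 4394398 in d16 tumour 3. The median kept cell had 1574 UMIs in nulliparous and 3314 in multiparous tumours, and at most 3 barcodes were shared by any pair of tumours.

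T cells recognise peptides through the T cell receptor, whose signal is passed on by the CD3 chains. Cd3d, Cd3e and Cd3g encode the delta, epsilon and gamma chains of that complex, and Lat encodes the membrane adaptor that gathers signalling proteins once the receptor is engaged. CD4 and CD8 are co-receptors that bind MHC class II and class I and divide T cells into helper or regulatory and cytotoxic lineages. Natural killer (NK) cells kill without a T cell receptor. Nkg7 encodes a protein of cytotoxic granules, Prf1 encodes perforin, which forms pores in target cells, Ifng encodes interferon gamma, and Xcl1 encodes a chemokine that attracts cross-presenting dendritic cells.

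The 3 CD3 genes lie together on chromosome 9, and the stretch before each start is shown. In the GENCODE annotation of GRCm38, Cd3g covers chr9:44969572-44980431 on the minus strand, Cd3d covers chr9:44981786-44987339 on the plus strand, and Cd3e covers chr9:44998740-45009627 on the minus strand. Cd3d and Cd3g are transcribed away from each other from starts 1355 bases apart. The GENCODE start of Cd3e is 27841 bases from that of Cd3d. The 250 bases before each start are printed from RefSeq on GRCm38.p6, at chr9:44981536-44981785 (plus strand) for Cd3d, chr9:45009612-45009861 (minus) for Cd3e and chr9:44980432-44980681 (minus) for Cd3g. Capitals mark matches, on either strand, to 4 short motifs of factors that act in lymphocytes or of the core promoter.
Cd3d: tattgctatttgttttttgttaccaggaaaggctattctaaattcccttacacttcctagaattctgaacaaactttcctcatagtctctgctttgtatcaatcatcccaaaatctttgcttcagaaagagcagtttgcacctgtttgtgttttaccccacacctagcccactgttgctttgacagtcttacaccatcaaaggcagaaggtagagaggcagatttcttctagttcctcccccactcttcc
Cd3e: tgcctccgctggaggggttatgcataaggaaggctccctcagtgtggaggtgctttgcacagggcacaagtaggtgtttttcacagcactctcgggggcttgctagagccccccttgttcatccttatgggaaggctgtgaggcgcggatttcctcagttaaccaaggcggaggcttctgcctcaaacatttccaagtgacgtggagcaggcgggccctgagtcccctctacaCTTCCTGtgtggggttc
Cd3g: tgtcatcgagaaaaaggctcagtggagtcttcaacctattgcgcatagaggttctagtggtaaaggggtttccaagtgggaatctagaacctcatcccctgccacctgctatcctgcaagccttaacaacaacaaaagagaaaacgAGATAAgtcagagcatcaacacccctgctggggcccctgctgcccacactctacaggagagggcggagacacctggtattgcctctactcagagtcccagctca
The motifs searched were TGTGGT for the RUNX core, AGATAA for GATA factors, CAGGAAG for ETS factors and TATAAA for the TATA box. None of the 4 was found before Cd3d. Distances are from RefSeq's starts, which match GENCODE for Cd3d and Cd3g. RefSeq's start of Cd3e lies inside the GENCODE gene, so the last bases printed for it, most of its ETS letters included, fall within that gene. Cd3e had the ETS letters on the other strand 17 bases before its start, and Cd3g had the GATA letters 104 bases before its start. Among 32851 mouse promoters of 250 bases, 14% held the RUNX letters, 9.99% the GATA letters, 10.8% the ETS letters and 12.4% the TATA letters, so such matches are common. RefSeq promoters were matched for 9 of the 10 genes. Of the others, Nkg7, Prf1 and Xcl1 each held the RUNX and ETS letters, Ifng held the TATA letters 30 bases before its start, and Cd8a and Lat held none of the 4.

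Most of the RNA of these genes came from 1 small class of cells. Clustering without the 10 genes gave 447 T or NK-like cells, named from other markers such as Cd2, Lck, Il2rb and Ctsw. This class held 94.5% of the Cd3d UMIs, 91.2% of Cd3e, 94.0% of Cd3g, 93.1% of Nkg7, 92.7% of Xcl1 and 95.8% of the 24 Ifng UMIs. Lat had 81.6% of its UMIs there, with 7.02% in epithelial-like and 6.58% in fibroblast-like cells. Cd8a had 81.7% there and 12.7% in dendritic-like cells, a class in which one mouse subset carries CD8 alpha. Cd4 stood apart, with 41.8% in T or NK-like, 32.4% in macrophage-like and 21.9% in dendritic-like cells. With a finer clustering (resolution 2 in place of 1) the Cd4 values were 41.8%, 50% and 4.30%. The division of Cd4 between macrophage-like and dendritic-like cells therefore depends on the clustering. So does the fibroblast-like share of Lat, which was 2.63% with the finer clustering, where 3.95% lay in clusters left unnamed.

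**Figure D1:**
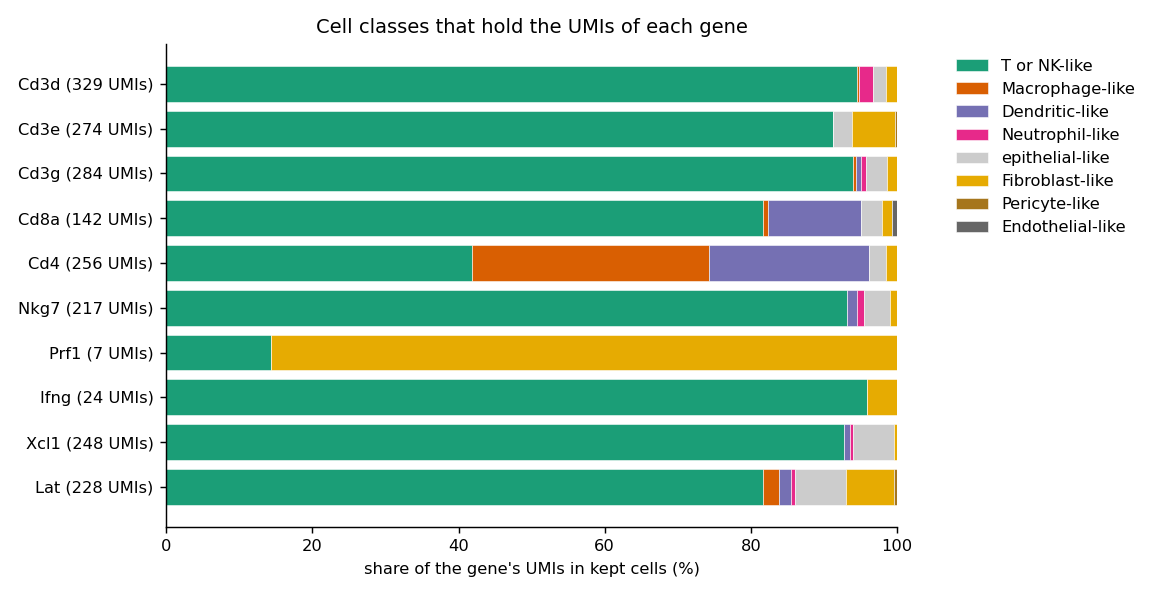
Share of each gene's UMIs (x axis, percent) held by each cell class, for the 10 genes (y axis, total UMIs in brackets). The T or NK-like class holds over 80% of the UMIs of Cd3d, Cd3e, Cd3g, Cd8a, Nkg7, Ifng, Xcl1 and Lat but 41.8% of Cd4, and Prf1 rests on 7 UMIs.

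Within the T or NK-like class, 36.9% of cells were positive for Cd3d, 33.3% for Cd3e and 32.2% for Cd3g. The background in epithelial-like cells, which should lack these genes, was 0.157%, 0.157% and 0.131% of 3831 cells. These epithelial-like cells had a median of 2147 UMIs, against 876 in the T or NK-like class, so the deeper class had the lower share. Lat was found in 27.1% of T or NK-like and 0.339% of epithelial-like cells. For Cd8a the shares were 15.7% and 0.0783%, for Nkg7 21.3% and 0.209%, and for Xcl1 16.6% and 0.183%. Cd4 was found in 13.2% of T or NK-like, 7.13% of 757 macrophage-like, 7.83% of 434 dendritic-like and 0.104% of epithelial-like cells. Cd4-positive cells often carried no CD3 UMI: of 154 such cells, 105 had no CD3 chain, and 11 of these 105 were T or NK-like.

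Prf1 was almost absent from the counts. It had 7 UMIs in 2 cells: 1 UMI in a T or NK-like cell of p95 tumour 5, and 6 UMIs in a fibroblast-like cell of multiparous tumour 1. Both cells also carried Nkg7. In the finer clustering the cell with 6 UMIs fell in a cluster left unnamed. With 0 Prf1-positive cells among 1436 in the solid nodular tumours, a share of up to 0.209% is allowed. Ifng was found in 16 cells, 14 of them nulliparous, and in 3.36% of T or NK-like cells against 0 of 3831 epithelial-like cells, which allows up to 0.0783%. Neither gene had enough counts for a test of tumour sums.

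A UMI of Cd3d, Cd3e or Cd3g was found in 333 cells, and 289 of them (86.8%) were T or NK-like. Only 1 of the 3 chains was seen in 193 (58.0%), and all 3 in 32 (9.61%). Lat was seen in 99 (29.7%), Nkg7 in 63, Xcl1 in 44 and Ifng in 8 of the 333. Capture was sparse throughout: 55% of Cd3d-positive cells, 60.9% of Cd3e-positive and 57.7% of Cd3g-positive cells held a single UMI. For Xcl1 36.9% of positive cells held a single UMI, with a mean of 2.95 and a maximum of 13, and for Lat 64.3% did, with a maximum of 4. A negative cell is therefore not shown to lack the gene. Of 107 Nkg7-positive cells 44 had no CD3 chain, and 36 of those 44 were T or NK-like; of 84 Xcl1-positive cells 40 had none, and 32 of those 40 were T or NK-like.

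The class split into a cluster of 312 cells and another of 135, and the members split with it. In the larger cluster, led by genes such as Cd7, Ctsw, Il2rb and Cd8b1, 22.1% of cells were positive for Cd8a, 28.5% for Nkg7, 23.7% for Xcl1 and 4.81% for Ifng, and 2.89% for Cd4. In the smaller cluster, led by Foxp3, Tnfrsf4, Ctla4 and Il2ra, genes typical of regulatory T cells, 37.0% were positive for Cd4, 0.741% for Cd8a and 4.44% for Nkg7. There Xcl1 and Ifng were seen in 0 of 135 cells, which allows up to 2.22% each. Cd3d was seen in 33.3% of the larger and 45.2% of the smaller cluster, and Lat in 22.4% and 37.8%, with median depths of 821 and 1024 UMIs. These shares describe clusters of the same cells and were not tested.

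Positive cells made up a smaller mean share in the multiparous tumours for every member except Prf1. A CD3 chain was found in 16, 6, 7 and 4 cells of multiparous tumours 1 to 4, or 2.34%, 0.823%, 1.19% and 1.16% of cells. The nulliparous shares ran from 1.10% in d16 tumour 1 through a median of 4.57% to 11.4% in p95 tumour 2. The means were 1.38% ± 0.663 (SD, n = 4) and 5.34% ± 3.82 (SD, n = 8). The ranges overlap: d16 tumour 1, the solid nodular one, lay below 3 of the 4 multiparous tumours, and d16 tumour 2 (2.47%) and p95 tumour 4 (2.14%) lay near multiparous tumour 1.

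Depth ran against this difference, since multiparous cells were deeper. Each cell was therefore also thinned to 500 UMIs, which left out 793 of 5024 nulliparous cells and 53 of 2342 multiparous cells, among them 36 of 300 and 2 of 33 cells with a CD3 chain. After thinning the CD3 share was 0.516% ± 0.570 (SD, n = 4) in multiparous and 3.72% ± 3.02 (SD, n = 8) in nulliparous tumours, a difference of -3.20 percentage points. Among the 8 tumours whose tables share 1 file layout, 4 of each parity, the thinned difference was -3.23 points. The share over the 3 chains is described and not tested.

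Cd3d was found in 4, 1, 0 and 3 cells of multiparous tumours 1 to 4, and in a mean of 0.399% ± 0.403 (SD, n = 4) of cells. In nulliparous tumours its share ran from 0.428% through a median of 1.72% to 6.79%, with a mean of 2.85% ± 2.54 (SD, n = 8). The 0 of 586 cells in multiparous tumour 3 allows up to 0.512%, more than the lowest nulliparous share. Cd3e was found in 7, 5, 5 and 1 multiparous cells, 0.714% ± 0.314 (SD, n = 4), against 2.50% ± 2.08 (SD, n = 8). Its nulliparous shares ran from 0 of 363 cells in d16 tumour 1, which allows up to 0.826%, to 5.65% in d16 tumour 3. Cd3g was found in 10, 1, 2 and 0 multiparous cells, 0.486% ± 0.667 (SD, n = 4), against 2.63% ± 2.01 (SD, n = 8). For each of the 3 chains the highest multiparous tumour lay above the lowest nulliparous one.

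Lat separated the parity groups without overlap. It was seen in 3, 4, 3 and 2 cells of multiparous tumours 1 to 4, shares of 0.439%, 0.549%, 0.512% and 0.581%. The nulliparous shares ran from 0.826% in d16 tumour 1 through a median of 1.64% to 5.65% in d16 tumour 3. The means were 0.520% ± 0.061 (SD, n = 4) and 2.49% ± 1.61 (SD, n = 8). Such a gap with the multiparous tumours lower occurred in 0.0279% of 14346 genes at full depth, and the exact two-sided permutation test gave p = 0.0202, adjusted p = 0.330 over all genes. Thinned, the Lat shares of the groups overlapped (0.146% against 1.16%, exact permutation p = 0.0606, adjusted p = 0.758), where 0.294% of 14297 genes were apart with the multiparous tumours lower, since d16 tumour 1 kept no positive cell. Of the 12 Lat-positive multiparous cells 9 had no CD3 chain and 4 were T or NK-like, while 117 of 145 in nulliparous tumours were T or NK-like.

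Among the co-receptors and effector genes the nulliparous tumours differed widely from each other. Cd8a was found in 1, 1, 2 and 1 cells of multiparous tumours 1 to 4, 0.229% ± 0.103 (SD, n = 4). In nulliparous tumours the Cd8a share ran from 0 of 573 cells in p95 tumour 5, which allows up to 0.524%, through a median of 0.583% to 5.70% in p95 tumour 2. Only 3 nulliparous tumours lay above 1%: p95 tumours 1 and 2 and d16 tumour 3. Cd4 was found in 12, 5, 4 and 0 multiparous cells, 0.781% ± 0.726 (SD, n = 4), against a nulliparous mean of 2.07% ± 2.56 (SD, n = 8) with a median of 1.10% and a highest value of 7.85% in d16 tumour 3. The Cd4 ranges overlapped fully apart from p95 tumour 5 (3.66%) and d16 tumour 3.

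Nkg7 was found in 9, 1, 1 and 0 cells of multiparous tumours 1 to 4, 0.406% ± 0.612 (SD, n = 4), against 1.89% ± 1.86 (SD, n = 8). Its nulliparous shares ran from 0 of 467 cells in p95 tumour 4, which allows up to 0.642%, to 5.31% in p95 tumour 2. Xcl1 was found in 3, 0, 0 and 1 multiparous cells, 0.182% ± 0.219 (SD, n = 4), against 1.59% ± 1.72 (SD, n = 8), with p95 tumours 1 (3.39%) and 2 (4.91%) highest. The Xcl1 gene overlaps Gm20743 on the opposite strand, and the strand used in counting is not given in the sources used here, so its counts are uncertain. Mir7058 lies inside Lat on the same strand, so the Lat counts are uncertain there. Ifng was found in 0.115% ± 0.142 (SD, n = 4) of multiparous and 0.219% ± 0.226 (SD, n = 8) of nulliparous cells.

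**Figure D2:**
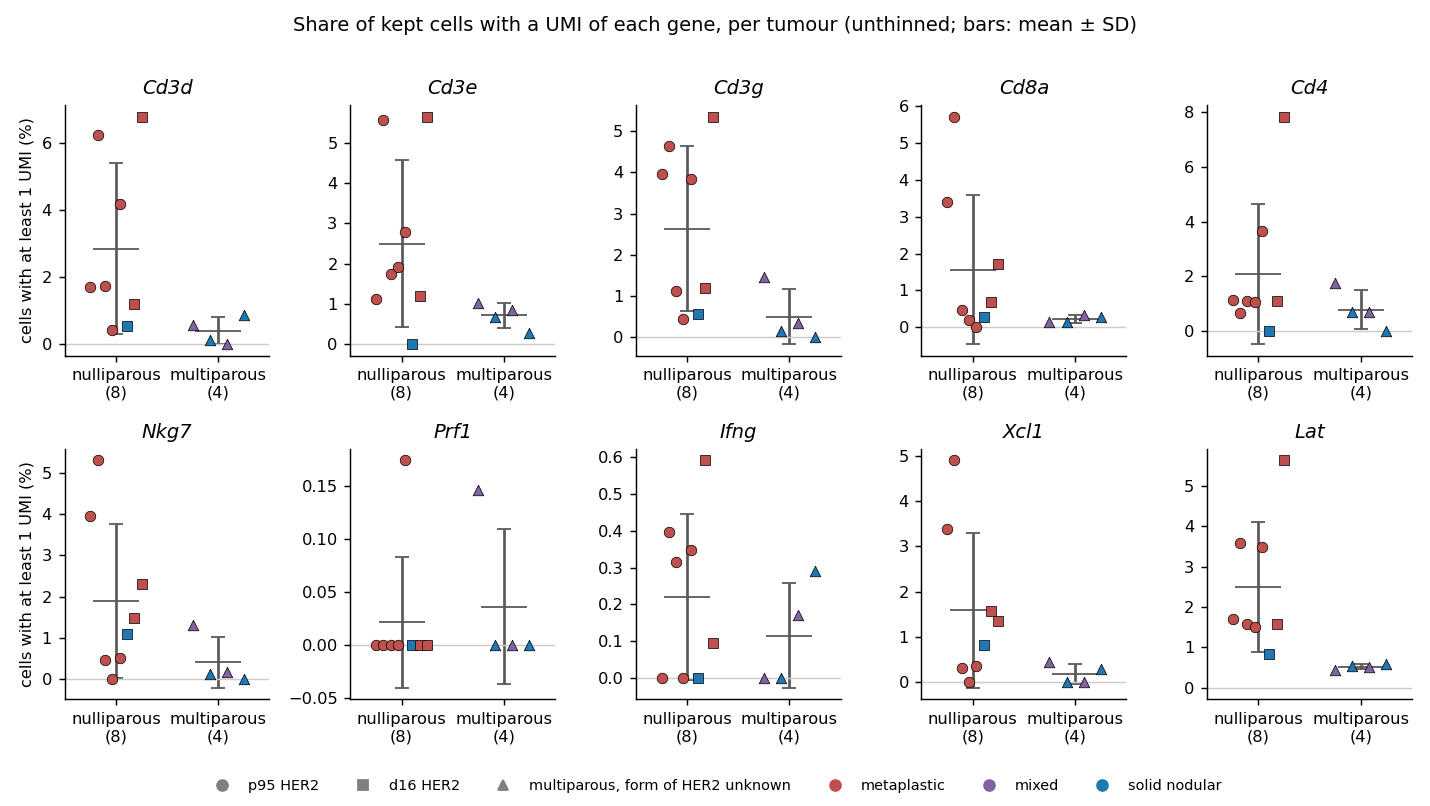
Percent of kept cells with at least 1 UMI (y axis) for each gene, by parity (x axis), without thinning; each point is 1 tumour, shape gives the HER2 form, colour the growth pattern, and bars are mean ± SD. Lat does not overlap between the groups, at 0.439 to 0.581% in multiparous and 0.826 to 5.65% in nulliparous tumours. The lowest nulliparous value rests on 3 of 363 cells, and 0.0279% of all genes were apart with the multiparous tumours lower. The ranges of the other 9 genes overlap.

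None of the thinned shares passed the exact permutation test once adjusted over 14297 genes, of which 0% passed and 939 had an unadjusted p under 0.05. Among the 9 members tested, the smallest p-values by that two-sided exact permutation test were 0.0545 for Cd3d, 0.0566 for Cd3g, and 0.0606 for Cd3e and Lat, with adjusted values of at least 0.750. The other 5 had an exact permutation p of 0.127 for Xcl1, 0.182 for Nkg7, 0.192 for Cd8a, 0.220 for Ifng and 0.240 for Cd4. The 495 splits of 4 against 8 tumours allow no p below 0.00202.

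The share of positive cells and the UMIs per positive cell are given side by side. A positive cell holds at least 1 UMI, so the ratio of UMIs per positive cell is bounded and that of shares is not. Less RNA per cell also lowers the share, so the sizes of the ratios do not tell cell number from RNA per cell. The log2 ratio of mean shares, multiparous over nulliparous at full depth, was -2.84 for Cd3d, -1.81 for Cd3e, -2.44 for Cd3g and -2.26 for Lat. It was -2.77 for Cd8a, -1.41 for Cd4, -2.22 for Nkg7, -3.12 for Xcl1 and -0.92 for Ifng. Over 14342 genes seen in at least 6 tumours the median was 0.64, and 11.2% were lower in multiparous tumours. Among the 5013 of them with a number of positive cells within the members' range, the median was 0.62 and 22.9% were lower. After thinning the median over all genes was 0.05 with 45.4% lower, and the 9 members lay between -4.69 for Cd3d and -1.59 for Cd4.

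UMIs per positive cell differed in both directions. The log2 ratio of pooled UMIs per positive cell at full depth was -0.73 for Cd3d (1.13 against 1.86 UMIs), -0.52 for Cd3e (1.17 against 1.68) and -0.34 for Cd3g (1.46 against 1.85). It was -0.04 for Lat (12 multiparous and 145 nulliparous cells), -0.04 for Cd4 (21 and 133) and 0.10 for Cd8a (5 and 79). Of these cells 4 and 117 were T or NK-like for Lat, 7 and 52 for Cd4, and 2 and 68 for Cd8a. The cells compared thus differ in class and depth, and near-equal values do not show equal RNA per cell. Nkg7 stood at 0.43, with 2.64 UMIs in 11 multiparous cells against 1.96 in 96 nulliparous cells. Xcl1 stood at -0.78, with 1.75 UMIs in 4 cells against 3.01 in 80. The median over all genes was 0.02, and 41.2% were lower.

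**Figure D3:**
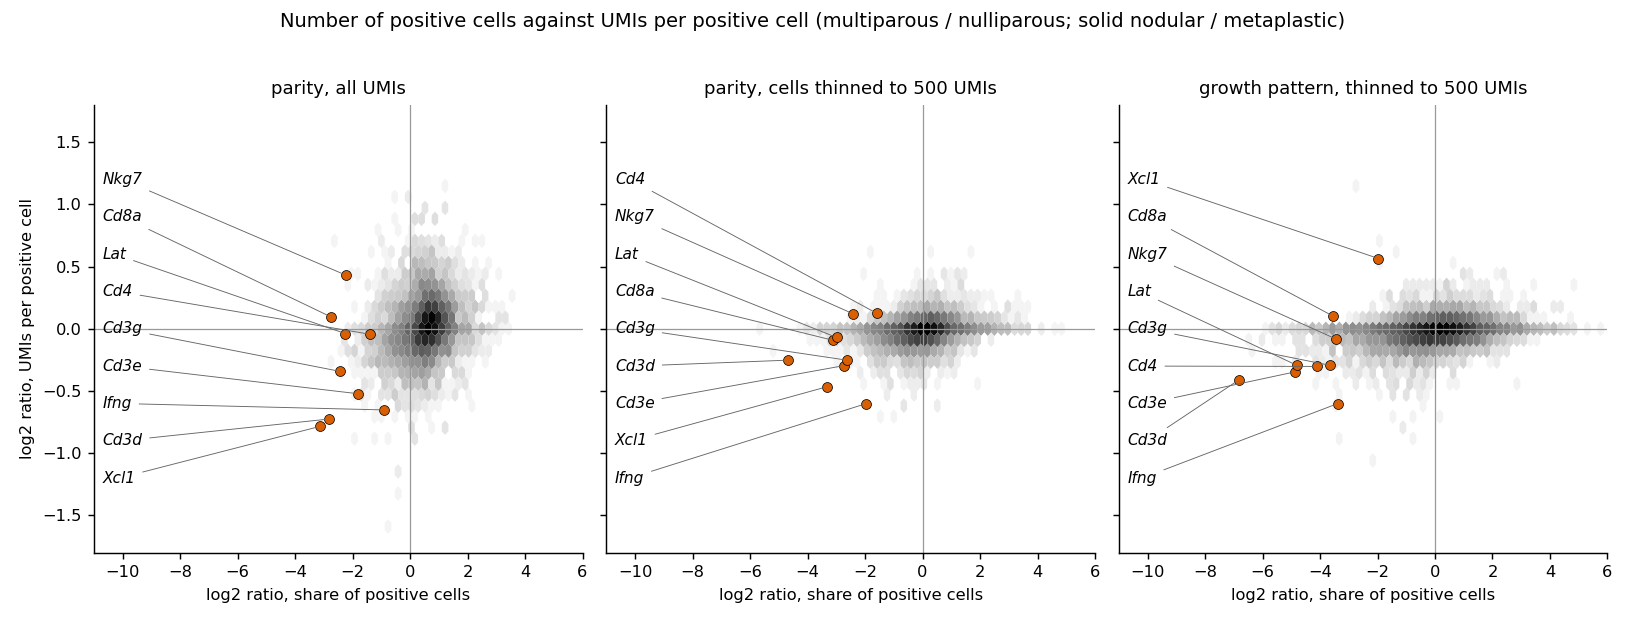
Log2 ratio of the share of positive cells (x axis) against log2 ratio of UMIs per positive cell (y axis), for multiparous over nulliparous tumours at full depth and thinned to 500 UMIs, and for solid nodular over metaplastic tumours thinned; grey hexagons are all genes seen in at least 6 tumours and orange points the members except Prf1. The members lie far to the left (-4.69 to -1.59 in the thinned parity panel) and between -0.60 and 0.12 on the y axis there.

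Only 3 members had at least 3 positive cells in at least 3 tumours of each parity, the minimum set for a test of UMIs per positive cell. Cd3e had a mean of 1.18 UMIs over 3 multiparous and 1.62 over 6 nulliparous tumours (two-sided exact permutation p = 0.0238, adjusted p = 0.775 over 11995 genes, of which 0% passed and 677 had an unadjusted p under 0.05). For Cd4 the means were 1.42 and 1.83 (exact permutation p = 0.274, adjusted 0.806). For Lat they were 1.5 and 1.37 (exact permutation p = 0.382, adjusted 0.830). No member could be tested after thinning.

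Counting the 3 chains together, a CD3-positive cell held 1.62, 1.67, 1.29 and 1 UMIs in multiparous tumours 1 to 4. The nulliparous tumours ran from 1.5 through a median of 2.25 to 3.34, in p95 tumour 5. The means were 1.39 ± 0.313 (SD, n = 4) and 2.37 ± 0.740 (SD, n = 8), and the groups overlapped through p95 tumour 1 and d16 tumour 1, both at 1.5. These are also the 2 shallowest tumours, with 452 and 449 UMIs in the median kept cell. Thinned to 500 UMIs the difference was -0.556, but with 1 multiparous tumour against 6.

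The difference was then split over the T or NK-like class. T or NK-like cells made up 1.74% ± 1.40 (SD, n = 4) of multiparous and 7.41% ± 5.18 (SD, n = 8) of nulliparous cells, a log2 ratio of -2.09. Among these cells 57.9% of 38 and 65.3% of 409 had a CD3 chain, a log2 ratio of -0.17. UMIs of the chains per such cell were 1.64 and 2.97, a log2 ratio of -0.86. The larger cluster held 71.1% and 69.7% of the class in the 2 parity groups. The smaller, Foxp3-led cluster came mostly from a few tumours: 10 of its 11 multiparous cells were from multiparous tumour 1, and 68 and 25 of its 124 nulliparous cells from d16 tumour 3 and p95 tumour 5. By parity the median T or NK-like cell had 993 and 863 UMIs.

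Of the 38 multiparous cells of the class 22 came from multiparous tumour 1, so the values below rest largely on that tumour. Cd3d was found in 15.8% of multiparous and 38.9% of nulliparous T or NK-like cells (exact 95% intervals 6.02 to 31.3% and 34.1 to 43.8%, which cover counting error only). Lat was found in 10.5% and 28.6% (2.94 to 24.8% and 24.3 to 33.3%), Cd8a in 5.26% and 16.6%, and Xcl1 in 7.89% and 17.4%. Cd3g was found in 31.6% and 32.3%, Cd4 in 18.4% and 12.7%, and Nkg7 in 26.3% and 20.8%. Without multiparous tumour 1, an alternative added after seeing the data, the multiparous counts were 3 of 16 for Cd3g (18.8%), 1 of 16 for Cd4 (6.25%) and 2 of 16 for Nkg7, all below the nulliparous shares. With 38 multiparous cells from 4 tumours these shares were not tested. Per 10000 UMIs of T or NK-like cells, CD3 chain UMIs numbered 8.87, 9.15, 12.2 and 3.94 in multiparous tumours 1 to 4. The nulliparous tumours ran from 11.5 in d16 tumour 2 to 20.8 in d16 tumour 1, so the groups overlapped. Several of these values rest on few UMIs: 3 in multiparous tumour 2, 6 in multiparous tumour 3, 3 in multiparous tumour 4 and 6 in d16 tumour 1. In multiparous tumours 11 of 33 CD3-positive cells lay outside the class, and in nulliparous tumours 33 of 300.

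UMIs summed over all cells of a tumour combine these terms. In such sums fewer cells of a type and less RNA per cell cannot be told apart. With edgeR's quasi-likelihood test and Benjamini-Hochberg adjustment over 11242 genes, 0.0801% of genes (9) passed at 0.05 between multiparous and nulliparous tumours, and 0 of the 7 members tested did. All 7 had lower estimates and an unadjusted p under 0.05. Over all genes 4.86% had a lower estimate with such a p, and 7.56% had such a p in either direction. Cd4 turned positive without the metaplastic tumours, in a fit against d16 tumour 1 alone. Their median log2 fold change was -3.20, against 0.02 over all genes.

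Lat came closest, at -3.16 ± 0.60 (log2 fold change ± SE, edgeR adjusted p = 0.0829), with mean levels of 1.79 and 17.1 CPM (UMI counts of the gene scaled to the tumour's total). Its CPM values did not overlap between the groups, as in 0.605% of genes with the multiparous tumours lower. The edgeR estimate for Cd3d was -4.57 ± 1.10 (adjusted p = 0.192, 1.26 against 24.6 CPM). Cd3e stood at -3.20 ± 0.83 (edgeR adjusted p = 0.239) and Cd3g at -3.59 ± 1.05 (edgeR adjusted p = 0.308). Xcl1 stood at -5.08 ± 1.57 (edgeR adjusted p = 0.335), Nkg7 at -2.94 ± 1.34 (edgeR adjusted p = 0.646) and Cd4 at -1.95 ± 0.78 (edgeR adjusted p = 0.543). Cd8a, Prf1 and Ifng did not pass the low-count filter.

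The choice of test decided the calls. DESeq2 called 157 genes, 132 of them lower (1.17%), and 5 of the 7 members were among those lower: Lat (adjusted p = 2.89e-04), Cd3d (9.5e-04), Cd3e (0.00497), Cd3g (0.00667) and Xcl1 (0.0392). Over the 25 alternatives run for Lat its adjusted p ranged from 2.89e-04 to 0.416 and was under 0.05 in 3. For Cd3d, Cd3e, Cd3g and Xcl1 only DESeq2 gave an adjusted p under 0.05, with highest values over the alternatives of 0.692, 0.567, 0.821 and 0.891. Within the shared file layout edgeR gave Cd3e -2.62 ± 0.52 (adjusted p = 0.147), Cd3g -2.74 ± 1.01 (0.392), Cd4 -2.16 ± 0.87 (0.434) and Lat -2.73 ± 0.53 (0.147).

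Growth pattern gave a similar picture with mostly the same tumours. A CD3 chain was found in 1.10%, 0.823% and 1.16% of cells in the solid nodular tumours, which are d16 tumour 1 and multiparous tumours 2 and 4. These shares rest on 4, 6 and 4 cells. The metaplastic shares ran from 2.14% through a median of 5.65% to 11.4%, without overlap, with means of 1.03% ± 0.181 (SD, n = 3) and 5.94% ± 3.69 (SD, n = 7). Among single genes at full depth, 0.548% of 13681 were likewise apart with solid nodular lower. Of the mixed tumours, multiparous tumour 1 (2.34%) lay inside the metaplastic range, and multiparous tumour 3 (1.19%) just above the solid nodular tumours. Thinned, the means were 0.208% ± 0.118 (SD, n = 3) and 4.20% ± 2.92 (SD, n = 7), a difference of -3.99 points, and of -3.61 points within the shared file layout. Thinning left out 265 of 1436 solid nodular and 581 of 4661 metaplastic cells, with 5 of 14 and 33 of 296 CD3-positive ones. A CD3-positive cell held 1.39 UMIs on average in solid nodular and 2.49 in metaplastic tumours at full depth, a difference of -1.10. Of these CD3-positive cells 8 of 14 and 263 of 296 were T or NK-like, so the cells compared differ in class.

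Cd3e, Cd3d, Cd4 and Lat did not overlap between the 3 solid nodular and 7 metaplastic tumours after thinning, as in 2.36% of 13584 genes with solid nodular lower. The exact two-sided permutation test gave p = 0.0417 for Cd3d and Cd3g (adjusted p = 0.275), 0.05 for Cd3e and Lat (0.296) and 0.0833 for Cd4 (0.354). Over all genes 0% passed that test after adjustment, 2061 had an unadjusted p under 0.05, and the 120 splits allow no p below 0.00833. At full depth the groups were apart for Cd3e and Lat, as in 0.548% of genes. Cd4 was found in 0, 5 and 0 cells of d16 tumour 1 and multiparous tumours 2 and 4, and in 0.663 to 7.85% of metaplastic cells. Cd4 was seen in 0 of 18 T or NK-like cells of the solid nodular tumours, which allows up to 16.7%, against 12.9% of 402 metaplastic ones, and none of the 18 fell in the Foxp3-led cluster.

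On tumour sums edgeR's quasi-likelihood test called 0% of 11394 genes between solid nodular and metaplastic tumours, with 2207 at an unadjusted p under 0.05; DESeq2 called 578 and limma voom 39. All 8 members tested had lower edgeR estimates, with a median of -3.59 against -0.02 over all genes. Cd4 stood at -3.90 ± 0.94 (edgeR adjusted p = 0.0837) and Cd3e at -3.83 ± 1.04 (0.112), and the CPM groups of both were apart, as in 3.73% of genes with solid nodular lower. The edgeR estimates for the others were Cd3d -3.97 ± 1.44 (adjusted p = 0.178), Cd3g -3.81 ± 1.69 (0.238), Lat -2.25 ± 0.93 (0.215), Cd8a -3.36 ± 2.07 (0.387), Nkg7 -3.38 ± 2.10 (0.391) and Xcl1 -2.14 ± 2.03 (0.594).

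DESeq2 called Cd3e (adjusted p = 0.00409), Cd4 (0.00545) and Cd3d (0.0361) lower, where 3.79% of genes were called lower. Over the alternatives the adjusted p ranged from 0.00409 to 0.339 for Cd3e, 0.00545 to 0.311 for Cd4 and 0.0361 to 0.662 for Cd3d. With parity as a covariate the edgeR estimate moved to -0.07 ± 1.17 for Lat, -0.62 ± 1.95 for Cd3g and -0.53 ± 2.76 for Nkg7, and turned to 0.59 ± 2.20 for Xcl1. It was -1.77 ± 2.20 for Cd3d and -2.21 ± 3.96 for Cd8a. For Cd3e (-8.33) and Cd4 (-7.69) the fitted values depend on the prior count, since d16 tumour 1 had 0 UMIs of both, and are no bound. In that fit the growth pattern was estimated from d16 tumour 1 against the metaplastic tumours, since both multiparous tumours in it were solid nodular.

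**Figure D4:**
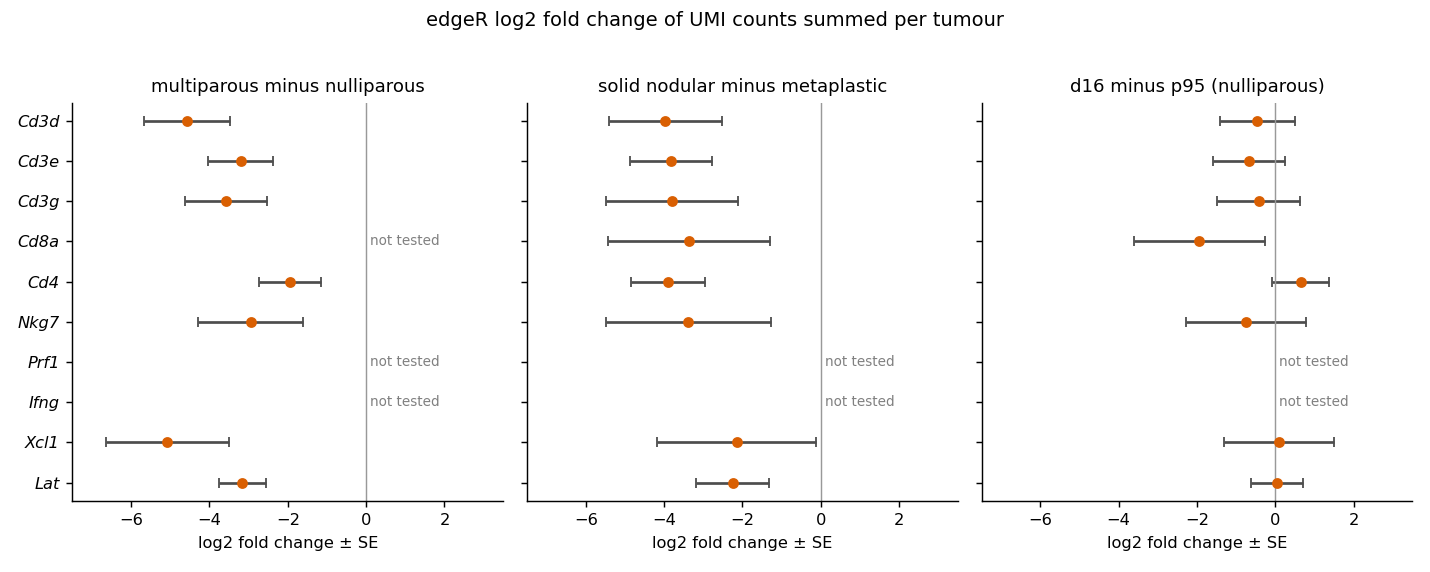
edgeR log2 fold change ± SE (x axis) of UMI sums per tumour for each member (y axis), in multiparous minus nulliparous, solid nodular minus metaplastic and d16 minus p95 HER2 tumours. All tested members lie below 0 in the first 2 panels, and in the third the estimates lie between -1.94 (Cd8a) and 0.64 (Cd4), with directions that flip between alternatives.

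The HER2 form gave no shared direction. Between the 3 d16 and 5 p95 nulliparous tumours the CD3 share was 4.64% ± 4.98 (SD, n = 3) and 5.76% ± 3.55 (SD, n = 5). edgeR estimates were -0.46 for Cd3d, -0.67 for Cd3e, -0.43 for Cd3g, -1.94 for Cd8a, -0.75 for Nkg7, 0.64 for Cd4, 0.09 for Xcl1 and 0.04 for Lat, with adjusted p of at least 0.937. Of 11061 genes 0% passed, with 463 at an unadjusted p under 0.05; DESeq2 called 3 and limma voom 0. The direction of each of these 8 members flipped under at least 1 alternative.

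The balance of Cd8a and Cd4 among CD3-positive cells differed from tumour to tumour. Of the 333 cells 54 had Cd8a, 49 had Cd4, 1 had both and 231 (69.4%) had neither. In p95 tumour 2 Cd8a was seen in 29 and Cd4 in 2 of 86 CD3-positive cells. In p95 tumour 5 the counts were 0 and 10 of 35, and in d16 tumour 3 they were 13 and 26 of 108. p95 tumour 1 had 5 Cd8a and 0 Cd4 among 10, p95 tumour 3 had 0 and 5 among 22, and d16 tumour 2 had 4 and 1 among 25. Multiparous tumour 1 had 0 Cd8a and 3 Cd4 among 16. The Foxp3-led cluster followed the Cd4 side, with 68 of its 135 cells from d16 tumour 3 and 25 from p95 tumour 5.

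**Figure D5:**
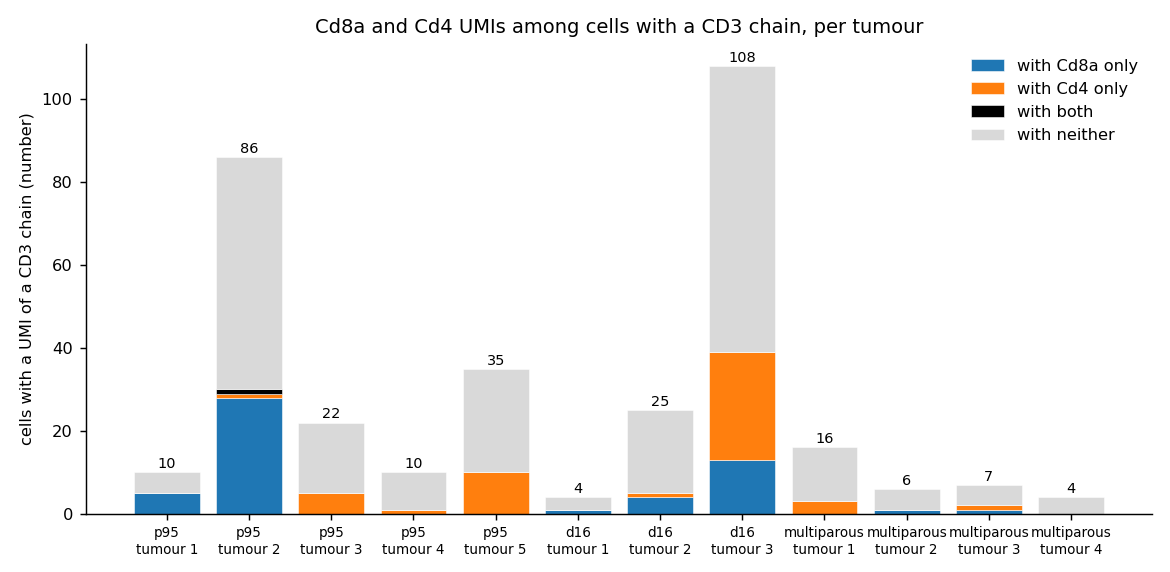
Number of cells with a CD3 chain UMI (y axis) in each tumour (x axis), coloured by whether Cd8a, Cd4, both or neither was also seen; totals stand above the bars. p95 tumour 2 (29 of 86 with Cd8a) and p95 tumour 5 (10 of 35 with Cd4, 0 with Cd8a) differ although both are p95, nulliparous and metaplastic.

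Over the 12 tumours the CPM values, as log2(CPM + 1), of the CD3 genes varied together and with Lat. Pearson's r was 0.874 for Cd3d and Cd3g, 0.775 for Cd3d and Cd3e, 0.710 for Cd3e and Cd3g, 0.931 for Cd3d and Lat and 0.915 for Cd3g and Lat. Cd3g went as closely with Nkg7 (r = 0.887) and Xcl1 (r = 0.878) as with Cd3d. The cause of this co-variation was not tested. Cd8a went with Nkg7 (r = 0.834) and less with Cd4 (r = 0.371), and Cd4 went with Cd3e (r = 0.879). These values are descriptions over 12 tumours, and within each tumour the genes share libraries, depth and group. The 11235 other genes were compared with the summed CPM of Cd3d, Cd3e and Cd3g, on a log2 scale. Those most alike over the 12 tumours were Arrb2 (r = 0.944), Il21r (0.941), Selplg (0.939), Il2rb (0.936), Grap2 (0.932), Abi3 (0.929), Scarb2 (0.927) and Mmd (0.922).

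Companion genes of the same pathways mostly lay on the same side. Of 18 T cell receptor and signalling genes 15 were in the tables and 9 could be tested by parity. All 9 had lower edgeR estimates, 0 passed and 7 had an unadjusted p under 0.05, with a median log2 fold change of -2.11. Zap70, the kinase that binds the phosphorylated CD3 chains, stood at -3.25 ± 0.90 (edgeR adjusted p = 0.254), and Grap2, an adaptor that joins LAT, at -2.96 ± 0.78 (edgeR adjusted p = 0.239). Fyb, an adaptor downstream of the receptor, stood at -1.90 ± 0.51 (edgeR adjusted p = 0.251) and Sh2d2a, a T cell adaptor, at -3.32 ± 1.15 (edgeR adjusted p = 0.425).

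Of 15 tested T cell surface and fate genes 14 lay lower, 0 passed and the median was -2.19. The costimulatory receptor gene Cd28 stood at -3.39 ± 1.02 (edgeR adjusted p = 0.308), Cd2 at -2.01 ± 0.67 (0.402), Cd5 at -2.79 ± 0.98 (0.419) and Ptprcap at -2.20 ± 0.80 (0.456). Of 14 tested natural killer and cytotoxic genes 12 lay lower, 0 passed and the median was -1.86. Among them the NK receptor gene Klrd1 stood at -2.21 ± 0.71 (edgeR adjusted p = 0.371), Fasl at -3.79 ± 1.28 (0.378), Cst7 at -2.90 ± 0.96 (0.382) and the granule proteoglycan gene Srgn, also expressed by myeloid cells, at -1.08 ± 0.35 (0.382).

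Of 9 tested interferon gamma and XCL1 partners 8 lay lower, 0 passed and the median was -0.69. Stat4, which carries interleukin 12 signals, stood at -2.48 ± 0.73 (edgeR adjusted p = 0.308), the receptor gene Ifngr1 at -0.91 ± 0.33 (0.437) and Irf1 at -0.87 ± 0.39 (0.643). By growth pattern 11 of 11, 14 of 16, 13 of 15 and 9 of 9 genes of the 4 lists lay lower, with medians of -2.63, -2.96, -1.49 and -0.89, and 0 passed. Over all genes 47.4% lay lower by parity and 51.1% by growth pattern.

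Mean shares of other immune classes were also lower in multiparous tumours, with overlapping ranges. Neutrophil-like cells differed little, at 3.53% ± 2.54 (SD, n = 4) of multiparous and 4.22% ± 5.10 (SD, n = 8) of nulliparous cells. Macrophage-like cells made up 7.88% ± 3.07 (SD, n = 4) of multiparous and 11.5% ± 3.10 (SD, n = 8) of nulliparous cells, and dendritic-like cells 3.19% ± 2.66 and 6.10% ± 5.76. Dendritic-like cells, which hold part of the Cd4 and Cd8a UMIs, made up 0.606% ± 0.618 (SD, n = 3) of solid nodular and 6.97% ± 5.63 (SD, n = 7) of metaplastic cells. The dendritic-like class had 434 cells, against 223 with the finer clustering, so its shares depend on the clustering. The part of these classes in the Cd4 and Cd8a values of whole tumours was not tested.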

How the data were processed

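Single cells of 12 mammary tumours were profiled with ddSEQ. The authors deposited 1 table of raw UMI counts per tumour, in which several libraries of a tumour were joined, per the labels. Seurat 3.0.2 and the build GRCm38 are named in the submitters' processing notes. The aligner and annotation are not given in the sources used here. In 8 of the 12 tables some gene names had been turned into dates, called the file layout, and were mapped back. Barcodes with at least 200 detected genes were kept. The tables hold 0 mitochondrial genes, so no such filter was used. They list no gene under the symbols Trac, Trbc1 or Trbc2, constant genes of the T cell receptor, so these could not be analysed.

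Cells were clustered without the 10 members (scanpy 1.11.5, 2000 variable genes, 30 components, Leiden resolution 1, 21 clusters) and named from fixed markers; the form of the naming rule was set after seeing the data. A nearest-neighbour score on simulated doublets marked 363 cells, which were kept. For shares, each cell was thinned to 500 UMIs by calculation, so that positive cells after thinning are expected numbers. Shares and UMIs per positive cell were compared by exact permutation over all splits of the tumours (numpy 2.4.6). UMI counts summed per tumour were tested with edgeR 4.0.16 (TMM, low-count filter, quasi-likelihood), with DESeq2 1.42.0 and limma 3.58.1 voom as alternatives (R 4.3.3), all adjusted over all genes by Benjamini-Hochberg. The SE of an edgeR estimate was calculated as the size of the estimate without the prior count, divided by the square root of the F statistic. The printed estimate includes the prior count, so its SE is approximate. The scripts were tested on simulated data. Intervals are exact (Clopper-Pearson, 95%), a count of 0 allows 3 counts, and both cover counting error only.

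The members and gene lists were chosen with earlier results of these data known. All members are named, and from each companion list up to 4 genes with the smallest p by parity; 1 such gene is not reported here. The labels do not say that tumours came from separate animals: p95 tumour 2 and d16 tumour 2 share a title number, as do d16 tumour 3 and p95 tumour 4. The p-values measure the spread between these samples, which may in part be technical. Any pair of tumours differed by more than sampling noise (lowest chi-square per degree of freedom 3.94). By growth pattern, UMIs per CD3-positive cell could not be had after thinning, and the value at full depth is given. Other normalizations, filters, cell cutoffs, thinning depths, covariates and each tumour left out were also tried; the fits within the shared layout, without the 2 shallowest tumours for shares, and on all barcodes without thinning were chosen after seeing the data.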

Additional observations from a re-analysis of the deposited data

Results flagged for a closer look

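In 52 groups of member values checked for a tumour far from the others, 8 values stood out. The rule's rate of about 1 in 20 groups by chance assumes normally distributed values in separate groups. Here the metaplastic groups lie within the nulliparous ones, and the Prf1 flags follow from 1 positive tumour against 0 in the others. The number that stood out is therefore not set against chance. Cd4 was found in 7.85% of cells of d16 tumour 3, far above the other nulliparous and the other metaplastic tumours. Nkg7 was found in 1.32% of cells of multiparous tumour 1, where the other 3 multiparous tumours lay at 0.171% or below. The single Prf1-positive cell of p95 tumour 5 gave 0.175% against 0 in all other nulliparous and metaplastic tumours, and that of multiparous tumour 1 gave 0.146% against 0 in the other multiparous tumours. Cd4-positive cells of p95 tumour 2 held 2.8 UMIs each, on 5 cells, above the other nulliparous and metaplastic tumours with at least 3 such cells.

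Outside the kept cells, 12 of the 1120 barcodes left out for too few detected genes carried 15 UMIs of the 3 CD3 chains. Of these 12 barcodes 8 came from p95 tumour 1, 2 from d16 tumour 1 and 2 from p95 tumour 3.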

How the results depend on the processing

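Of 499 alternative values of member fold changes 450 kept their direction and side of the threshold, 13 newly passed it and 36 changed direction. By parity 9 genes passed in edgeR; the count was 157 with DESeq2, 15 with limma voom, 5 with all barcodes, without predicted doublets or with tumours that share a title number summed, 4 with the file layout as covariate, within 1 layout or without the 2 shallowest tumours, and 0 without metaplastic tumours. With the title number as a block in limma voom (replicate block) it was 3; the labels do not say that the number pairs tumours, so no result rests on that pairing. By growth pattern 0 passed, against 578 with DESeq2, 39 with limma voom, 38 without the low-count filter, 9 with all barcodes, 849 with the layout as covariate, 31 with title numbers summed and 389 within 1 layout. By HER2 form 0 passed, against 3 with DESeq2 and 1 within 1 layout. Leaving out each tumour gave 0 to 20, 0 to 314 (314 without d16 tumour 2, 42 without p95 tumour 4) and 0 to 2 genes. Lat passed by parity also with title numbers summed (adjusted p = 0.0418) and without p95 tumour 4 (0.0464). By growth pattern Cd3e (0.0421) and Cd4 (0.0321) passed with the layout as covariate, and Cd4 without d16 tumour 2 (0.0455).

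The CD3 share differences ranged from -3.68 to -2.46 points by parity and from -4.54 to -3.21 by growth pattern with 1 tumour left out, and were -3.96 and -4.91 without thinning. Without metaplastic tumours the Cd4 estimate by parity was 5.72, fitted against 1 tumour with 0 Cd4 UMIs and no bound. Xcl1 by growth pattern was 0.59 with parity as covariate. With 1 tumour left out the estimates by parity ranged from -5.11 to -3.91 (Cd3d), -3.38 to -2.52 (Cd3e), -4.64 to -3.15 (Cd3g), -3.13 to -1.47 (Cd4), -3.89 to -2.20 (Nkg7), -6.14 to -4.48 (Xcl1) and -3.32 to -2.82 (Lat). By growth pattern they ranged from -4.69 to -2.58 (Cd3d), -4.63 to -3.15 (Cd3e), -5.70 to -2.46 (Cd3g), -3.92 to -2.41 (Cd8a), -7.51 to -3.43 (Cd4), -4.76 to -2.36 (Nkg7), -5.55 to -0.79 (Xcl1) and -3.19 to -1.38 (Lat). Without multiparous tumour 2 came the lowest of these for Cd3e and Cd4 (for Cd4 with 0 UMIs left in the solid nodular group, so no bound) and the highest for the other 6 members. By HER2 form limma voom gave 0.90 for Cd3d, 0.23 for Cd3e, 1.25 for Cd3g, 1.46 for Cd8a and 2.54 for Nkg7; with the block, 1.08, 0.19, 1.43, 1.12 and 2.60; and within 1 layout, 1.5, 1.45, 1.70, 2.89 and 3.45. Cd3g was 0.021 with cells of at least 500 detected genes, Nkg7 0.31 with the layout as covariate, Xcl1 -0.21 and Lat -0.034 with DESeq2, and Lat -0.012 with all barcodes. Those by HER2 form with 1 tumour left out ranged from -1.12 to 0.74 (Cd3d), -1.55 to 0.52 (Cd3e), -0.86 to 0.53 (Cd3g), -0.84 to 1.001 (Cd4), -1.21 to 1.15 (Nkg7), -0.35 to 2.14 (Xcl1) and -0.38 to 0.79 (Lat). The cause of these changes was not tested. The number of cells limits what an absence shows: 0 positive cells in multiparous tumour 4 allow a share of up to 0.872%.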
